A study of Homo sapiens with 8 samples.

Results

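The 35 genes described here belong to the ATF4 arm of the integrated stress response and to the tRNA synthetases and amino acid genes it controls. They were chosen by name, and each matched exactly 1 of the 61906 genes in the deposited table of U251 transcript levels. All 35 were among the 14478 genes whose mean TPM over the 8 libraries was 1 or more, TPM being a transcript's share of its library after correction for length. U251 is a human glioblastoma cell line, labelled WT. LLY-283 inhibits PRMT5, a methyltransferase that places symmetric dimethyl groups on arginine. RNAseq of poly(A) RNA was performed on 4 samples treated with vehicle (DMSO) and 4 treated with LLY-283 (100 nM), all for 24 h, in this single line at this single dose and time.

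The integrated stress response starts when a kinase (HRI, PERK, PKR or GCN2) phosphorylates the translation factor eIF2 on its alpha subunit. General translation then falls while the transcription factor ATF4 is translated more, so that ATF4 activity is set largely at the level of its protein, which RNAseq does not measure. ATF4 pairs with C/EBP proteins on C/EBP-ATF response elements and raises genes for amino acid synthesis, amino acid uptake, tRNA charging and, when stress lasts, the death-promoting factor DDIT3 (CHOP). Glioblastoma cells use this pathway to withstand nutrient and oxygen shortage.

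Promoter sequences are shown first because many ATF4 target genes are known to carry the response element, although the members also include genes upstream of ATF4. RefSeq promoters (GRCh38.p14, 250 bases before to 50 bases after each transcription start) were found for 29 of the 35 members, in 44 windows. The letters TGATGNAA were searched on both strands. They were present in 11 of the 44 member windows (25.0%), against 3.62% of all 35116 promoter windows and 1.96% of the 15174 windows of tested genes. In 2 lists described below, of other ATF4 target genes and of other cytosolic tRNA synthetases, the shares were 19.4% of 31 and 16.7% of 18 windows. The matches of the members are printed with up to 11 bases on each side, 5′ to 3′ on the strand of the gene, with the matching letters in capitals.
CHAC1, chr15:40953251-40953280, plus strand: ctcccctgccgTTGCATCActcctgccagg
CEBPG, chr19:33374060-33374089, plus strand: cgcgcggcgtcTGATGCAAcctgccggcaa
AARS1, chr16:70289675-70289704, minus strand: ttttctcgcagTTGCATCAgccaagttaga
SLC1A5, chr19:46784893-46784922, minus strand: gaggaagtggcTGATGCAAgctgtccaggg
ASNS, chr7:97872458-97872487, minus strand: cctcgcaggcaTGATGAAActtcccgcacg
ATF3, chr1:212565205-212565234, plus strand: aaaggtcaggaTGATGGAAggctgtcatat
GARS1, chr7:30594834-30594863, plus strand: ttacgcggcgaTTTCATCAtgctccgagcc
MARS1, chr12:57488053-57488082, plus strand: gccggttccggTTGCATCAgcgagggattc
NARS1, chr18:57621804-57621833, minus strand: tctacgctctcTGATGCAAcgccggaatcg
SLC3A2, chr11:62881725-62881748, plus strand: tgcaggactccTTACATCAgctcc
SLC7A1, chr13:29595663-29595692, minus strand: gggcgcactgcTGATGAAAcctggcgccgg
CHAC1, CEBPG, AARS1 and SLC1A5, the first 4 sequences, were lower after LLY-283. Of the other 7 genes, GARS1 was higher and 6 did not pass the test in either direction. The match lay before the RefSeq start in ATF3, CHAC1, AARS1, SLC1A5, ASNS, CEBPG and GARS1, the farthest in CHAC1, 209 bases before it. It crossed the start in MARS1 and followed it in NARS1, SLC3A2 and SLC7A1. In all but ATF3 and CEBPG the matching letters also lay within an exon of at least 1 GENCODE transcript of the gene. The same letters were thus found in members that fell, rose or did neither. Among the members with a promoter, they were in 4 of the 14 that were lower and in 7 of the 15 that were not. Promoters of ALDH1L2, EIF2AK1, NUPR1, PSPH, SHMT2 and SLC7A11 were not matched, and a window without the letters says nothing of sites elsewhere.

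The treated and vehicle libraries were compared by limma on log2(TPM + 0.1) over all genes tested, with Benjamini-Hochberg adjustment. A gene is called higher or lower here at an adjusted p-value under 0.05. Fold changes are LLY-283 over vehicle on that scale. By this criterion 15 of the 35 members were lower and 1, GARS1, was higher. Over all genes tested, 17.6% were lower and 8.61% were higher, so that 32.9% of the calls were increases. That share was 50.7% under quantile normalization, 50.8% with median-of-ratios scaling of the libraries and 63.4% after a correction for each gene's GC content and length. The members were then called lower in 16, 9 and 8 cases and higher in 1, 4 and 5 cases, in the same order of settings. Over all genes tested in those settings (14478, 14478 and 14457), 1820, 1866 and 1593 were lower, in place of 2541. Those called higher numbered 1871, 1927 and 2763, in place of 1247.
Most changes were small. The median log2 fold change of the members was -0.10, against -0.05 for all genes tested, and 27 of the 35 were below 0. Only CHAC1 also changed by more than 1.5-fold, which 3.48% of all genes tested did downward and 0.394% upward. The 4 LLY-283 values lay below all 4 vehicle values for 15 members, against 19.6% of all genes tested, and above them for 2, against 9.63%. The 35 genes together summed to between 3754 and 3791 TPM in the vehicle libraries and to between 3501 and 3723 TPM in the LLY-283 libraries.
The calls of DDIT3, CHAC1, DDIT4, CEBPG, PSAT1, SLC7A11 and AARS1 (7 of the 16) held under all 19 alternative settings that kept the threshold, among them each library left out in turn. The other 9 were lost under at least 1.

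**Figure D1:**
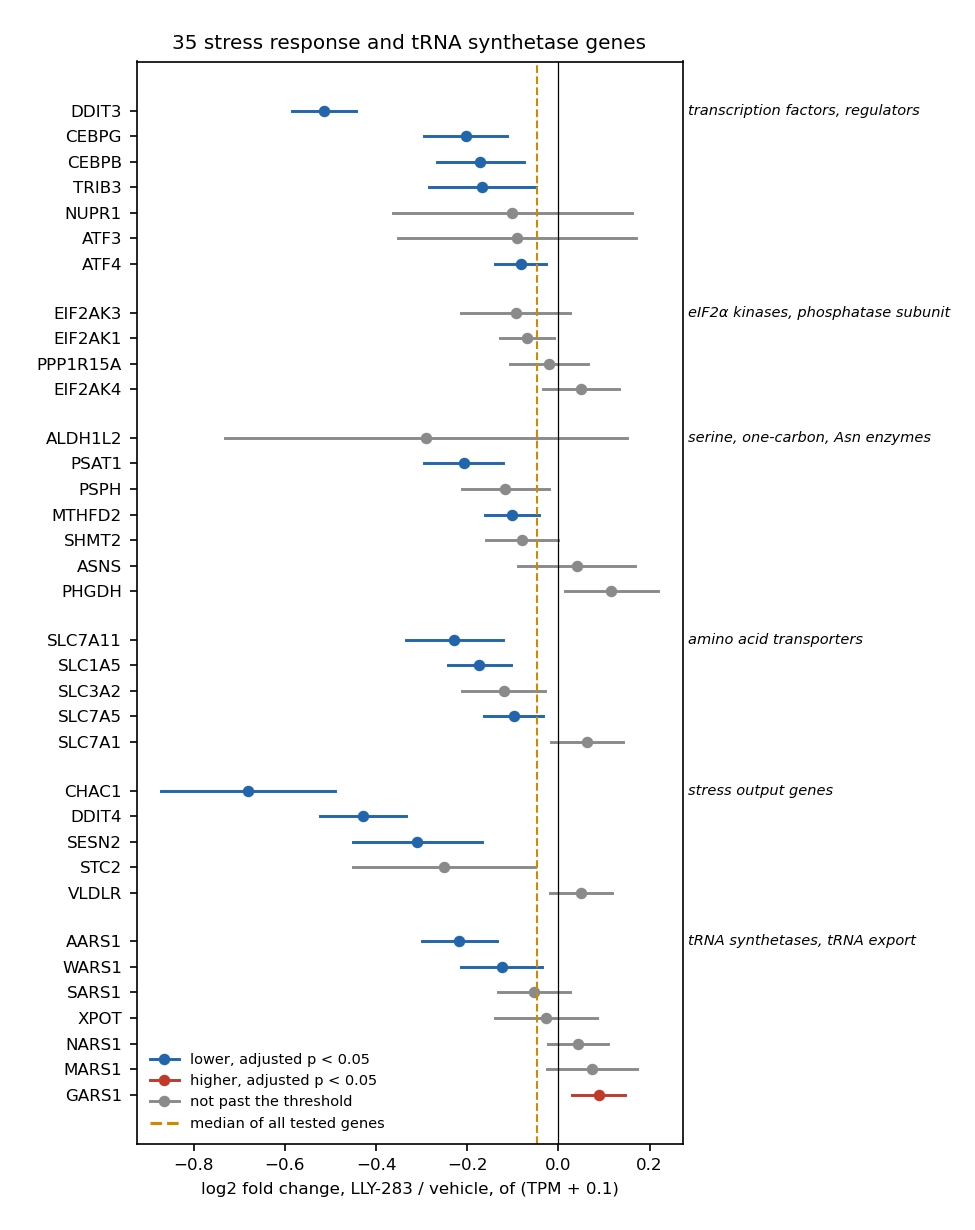
Log2 fold change (LLY-283 over vehicle, on log2(TPM + 0.1)) of the 35 genes by role, with 95% confidence intervals from limma (4 libraries per group). CHAC1, DDIT3 and DDIT4 lie farthest to the left at -0.68, -0.51 and -0.43, and GARS1 at 0.09 is the only gene in red.

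The libraries differed in ways that touch these values. Mitochondrially encoded transcripts made up at least 10.15% of the TPM in 7 libraries and 7.19% in LLY-283 replicate 4. In that library 26 of the 35 members lay above the mean of their own group, and without it 20 members were called lower in place of 15. Over all genes tested, leaving out any 1 library gave at most 2659 lower genes, in place of 2541. With mitochondrial genes left out of the TPM, 19 members were called lower and 2 higher (median of their log2 fold changes -0.11). In that setting the median of all genes tested was -0.06, and 30.3% of all calls were increases, in place of 32.9%. Within groups, libraries correlated at 0.963 to 0.971 on log2(TPM + 0.1). The file gives no read counts, so the depth is unknown. The samples are labelled biological replicates with no statement on separate cultures, so p-values measure the spread between these samples. Bulk RNA cannot tell a lower level in every cell from a loss in some of them. Of 7 glial and stem markers all passed the filter, with group means from 85.6 TPM upward for SOX2, SOX9, NES, GFAP, VIM and CD44 and of only 4.34 TPM with vehicle and 3.21 TPM with LLY-283 for S100B, while 9 of 11 markers of other cell types stayed at 0.33 TPM or less in all libraries. The remaining markers, CD68 and SYT1, ranged from 0.95 to 2.93 TPM and from 4.51 to 5.63 TPM over the 8 libraries.

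Among the transcription factors and regulators, 5 of 7 members were lower after LLY-283 (71.4%, against 17.6% of all genes tested) and none was higher (8.61% of all genes tested). The lower count was 3 under quantile normalization, 2 with median-of-ratios scaling and 2 with the GC and length trend removed. It was 3 to 5 with each library left out in turn. ATF4 (ENSG00000128272, chromosome 22, 39519695 to 39522683 of GRCh38), the factor at the head of the response, had 326.13, 338.69, 324.36 and 335.69 TPM with vehicle and 315.5, 309.73, 308.93 and 317.24 TPM with LLY-283. The groups did not overlap, but the distance between them was small. ATF4 mRNA was the most abundant of the 35 genes, at 331 ± 7.04 against 313 ± 4.14 TPM (SD over 4 libraries), and had a log2 fold change of -0.08 (adjusted p = 0.0377 by limma, standard error 0.025). This call was lost, among other settings, with median-of-ratios scaling (adjusted p = 0.401) and without any 1 of vehicle replicates 1, 2 and 4 and LLY-283 replicates 1, 2 and 3 (adjusted p up to 0.0963), and the sign turned with the GC and length trend removed (0.01, adjusted p = 0.762).
DDIT3 (ENSG00000175197, chromosome 12, 57516588 to 57521737), which encodes CHOP, a C/EBP-family factor that ATF4 induces and that promotes death under lasting stress, had 39.23, 40.01, 39.21 and 39.16 TPM with vehicle. With LLY-283 it had 27, 27.69, 27.38 and 28.22 TPM. Each LLY-283 value was far below each vehicle value, and both groups were tight. DDIT3 fell by 30.0%, a log2 fold change of -0.51 (adjusted p = 2.33e-05 by limma, standard error 0.031), and its p-value ranked 16th of the 14478. Its log2 fold change stayed between -0.52 and -0.40 over the alternatives. DDIT3 overlaps MARS1 on the opposite strand by 355 exonic bases. It also overlaps a protein-coding gene on the same strand, ENSG00000285133, by 105 exonic bases, so the division of reads between those genes is uncertain. Whether the counting used strand is not given in the sources used here.
CEBPG (ENSG00000153879, chromosome 19, 33373685 to 33382686), a C/EBP protein that dimerizes with ATF4, had 32.41, 28.98, 31.4 and 30.5 TPM with vehicle and 26.79, 26.31, 26.77 and 27.05 TPM with LLY-283. The groups did not overlap, and the log2 fold change was -0.20 (adjusted p = 0.00632 by limma, standard error 0.041).
TRIB3, a pseudokinase that ATF4 and CHOP induce and that restrains them, had 21.05, 20.63, 20.4 and 21.66 TPM with vehicle and 18.93, 17.8, 17.6 and 20.31 TPM with LLY-283. Its highest LLY-283 value, in replicate 4, came close to the lowest vehicle value. The call (log2 fold change -0.17, adjusted p = 0.0423, limma) was lost under 12 of 19 alternatives, 7 of which left out 1 library (any but LLY-283 replicate 4, adjusted p up to 0.110). With the GC and length trend removed, the log2 fold change of TRIB3 was -0.09 (adjusted p = 0.285, limma). CEBPB, another C/EBP partner, fell from 31.8 ± 0.785 TPM with vehicle to 28.2 ± 1.37 TPM with LLY-283 (SD over 4 libraries; adjusted p = 0.0164 by limma, log2 fold change -0.17), a call lost under quantile normalization, median-of-ratios scaling and removal of the GC and length trend (adjusted p up to 0.186).
ATF3, an immediate stress factor downstream of ATF4, had 4.71, 5.62, 5.16 and 4.74 TPM with vehicle and 4.22, 4.38, 4.57 and 5.92 TPM with LLY-283. The highest of the 8 values was in LLY-283 replicate 4, and the groups overlapped (log2 fold change -0.09, 95% confidence interval -0.35 to 0.17, adjusted p = 0.601, limma). NUPR1, a small stress-induced chromatin protein, ranged from 11.68 to 17.62 TPM with vehicle and from 11.86 to 13.92 TPM with LLY-283 (log2 fold change -0.10, 95% confidence interval -0.36 to 0.16, adjusted p = 0.561, limma). It overlaps a long noncoding gene, ENSG00000289754, on the same strand by 909 exonic bases, so the division of reads between them is uncertain.

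**Figure D2:**
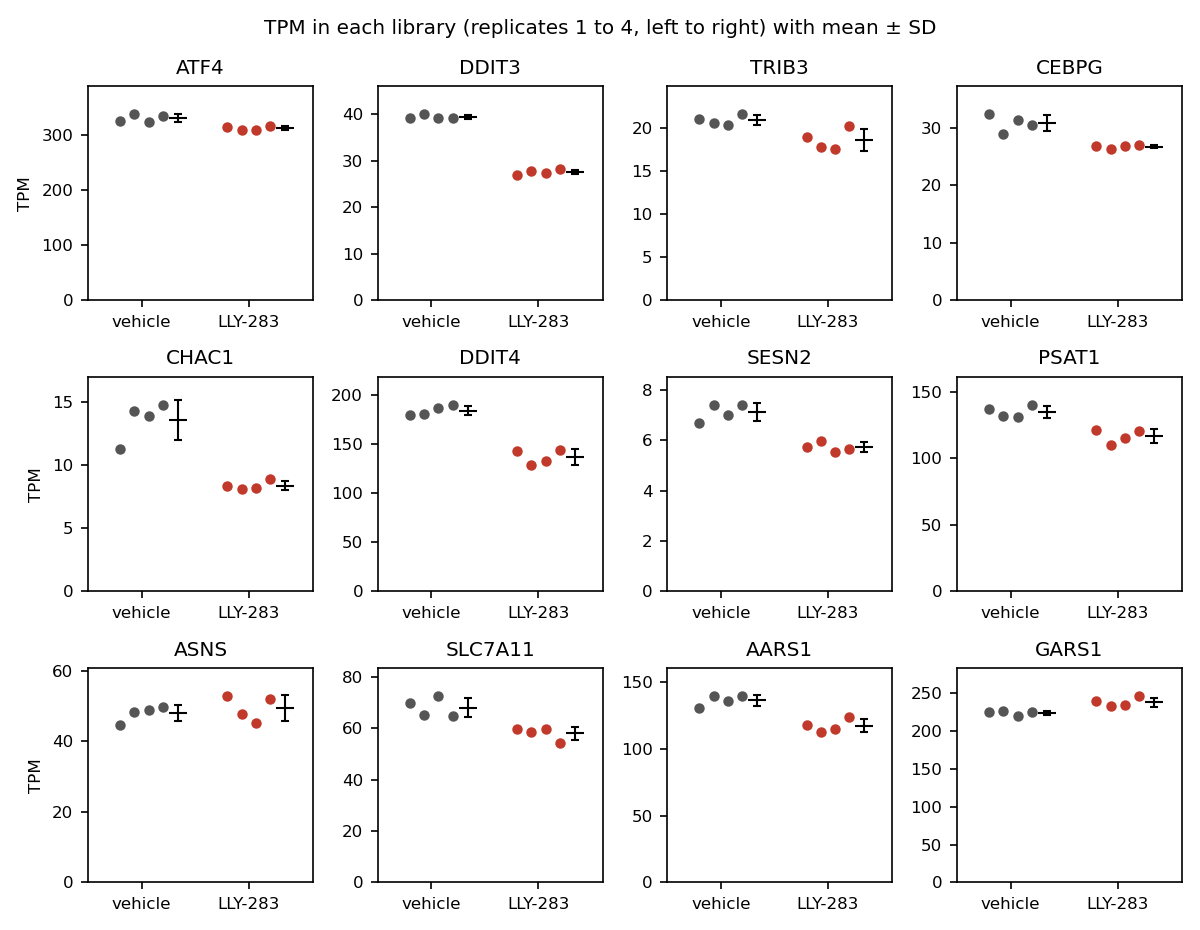
TPM of 12 of the 35 genes in each library (points, replicates 1 to 4 from left to right), with the mean ± SD (n = 4) beside each group and axes from 0. The groups are wide apart for DDIT3, CHAC1 and DDIT4, close for ATF4 and TRIB3, mixed for ASNS, and for GARS1 the LLY-283 points are the higher ones.

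None of the 3 eIF2 alpha kinases among the members, nor the phosphatase subunit PPP1R15A, passed the test by limma. Among all genes tested, 17.6% were lower and 8.61% were higher. At an unadjusted p-value under 0.05 by limma, 1 of these 4 genes, EIF2AK1, was lower. At least 5490 of the 14478 genes tested passed that looser threshold, in either direction. EIF2AK1 (HRI, the heme and mitochondrial stress kinase) had 198.44, 198.02, 203.27 and 201.26 TPM with vehicle and 190.44, 189.03, 186.34 and 197.79 TPM with LLY-283. All LLY-283 values were the lower ones, by a log2 fold change of -0.07 (95% confidence interval -0.13 to -0.01, adjusted p = 0.0852, limma). The adjusted p-value was 0.0114 without LLY-283 replicate 4, 0.0145 under quantile normalization and 0.0248 with mitochondrial genes left out. With the GC and length trend removed the log2 fold change was 0.03 (adjusted p = 0.463). EIF2AK1 shares 532 exonic bases with AIMP2, a gene on the opposite strand that was higher after LLY-283 (below).
EIF2AK3 (PERK, the kinase of endoplasmic reticulum stress) had 23.82, 22.37, 25.93 and 25.04 TPM with vehicle and 23.47, 22.54, 23.29 and 21.61 TPM with LLY-283. The groups overlapped (log2 fold change -0.09, 95% confidence interval -0.21 to 0.02, adjusted p = 0.221, limma). EIF2AK4 (GCN2, the kinase that senses uncharged tRNA) had 73.76, 70.47, 72.37 and 70.96 TPM with vehicle and 74.16, 73.09, 71.26 and 79.27 TPM with LLY-283. These groups overlapped too, with replicate 4 the highest of the LLY-283 libraries (log2 fold change 0.05, 95% confidence interval -0.03 to 0.13, adjusted p = 0.363, limma). EIF2AK2 (PKR), the kinase that binds double-stranded RNA and is not among the 35 genes, ranged from 27.15 to 33.48 TPM with vehicle and from 27.25 to 33.17 TPM with LLY-283 (adjusted p = 0.645 by limma, 95% confidence interval of the log2 fold change -0.12 to 0.23). PPP1R15A (GADD34), the stress-induced subunit that directs a phosphatase back to eIF2 alpha, ranged from 17.88 to 18.73 TPM with vehicle and from 17.63 to 18.56 TPM with LLY-283 (log2 fold change -0.02, 95% confidence interval -0.11 to 0.06, adjusted p = 0.718, limma).

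Of the 5 genes that carry out stress adaptation, 3 were lower and none was higher (17.6% and 8.61% of all genes tested), and CHAC1 among them had the largest change of the 35 genes. CHAC1 (ENSG00000128965, chromosome 15, 40952962 to 40956512), an ATF4 target whose enzyme degrades glutathione, had 11.26, 14.26, 13.92 and 14.76 TPM with vehicle and 8.38, 8.07, 8.16 and 8.9 TPM with LLY-283. The groups did not overlap, although vehicle replicate 1 was nearer to the LLY-283 libraries than the other vehicle values were. CHAC1 fell by 37.6% (adjusted p = 0.000595 by limma, log2 fold change -0.68, standard error 0.085), and the fold change stayed between -0.77 and -0.58 over the alternatives.
DDIT4 (REDD1; ENSG00000168209, chromosome 10, 72273919 to 72276036), which restrains mTORC1 under stress, had 179.45, 181.29, 186.58 and 190.08 TPM with vehicle and 142.84, 128.43, 132.7 and 144.42 TPM with LLY-283. All 4 LLY-283 values were well below the vehicle range, and DDIT4 fell by 25.7% (adjusted p = 0.000188 by limma, log2 fold change -0.43, standard error 0.042). SESN2, a leucine sensor that also restrains mTORC1, fell from 7.12 ± 0.349 TPM with vehicle to 5.72 ± 0.190 TPM with LLY-283 (SD over 4 libraries; adjusted p = 0.00696 by limma, log2 fold change -0.31), a call lost under quantile normalization (-0.18, adjusted p = 0.0684).
STC2, a secreted glycoprotein induced by ATF4, ranged from 21.66 to 25 TPM with vehicle and from 16.76 to 22.11 TPM with LLY-283 (log2 fold change -0.25, adjusted p = 0.0643, limma), and passed the test without LLY-283 replicate 1 (-0.31, adjusted p = 0.0342). VLDLR, a lipoprotein receptor, ranged from 182.4 to 192.19 TPM with vehicle and from 189.53 to 202.04 TPM with LLY-283 (adjusted p = 0.258, 95% confidence interval -0.02 to 0.12), and was higher with median-of-ratios scaling (0.09, adjusted p = 0.0491).

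Of the 7 enzymes of serine, glycine, folate and asparagine synthesis, 2 (28.6%, against 17.6% of all genes tested) were lower and none was higher (8.61% of all genes tested). Under quantile normalization 4 were lower and 1 was higher. With median-of-ratios scaling, and with the GC and length trend removed, 1 was lower and 1 higher. With each library left out in turn, 1 to 4 were lower and none was higher. PSAT1 (ENSG00000135069, chromosome 9, 78297125 to 78330093), the aminotransferase of the serine pathway, had 137.38, 131.81, 131.07 and 140.26 TPM with vehicle and 121.3, 110.24, 115.75 and 120.87 TPM with LLY-283. The groups did not overlap, and PSAT1 fell by 13.4% (adjusted p = 0.00449 by limma, log2 fold change -0.21, standard error 0.039).
MTHFD2, the mitochondrial folate enzyme that is high in many tumors, had 161.75, 168.96, 169.5 and 167.57 TPM with vehicle and 158.01, 153.34, 153.7 and 157.52 TPM with LLY-283. Vehicle replicate 1 lay close to the LLY-283 range without entering it. The log2 fold change of -0.10 (adjusted p = 0.0207, limma) was lost with median-of-ratios scaling, with the GC and length trend removed (adjusted p = 0.354), with a replicate block (adjusted p = 0.0561) and without any 1 of vehicle replicates 2 and 4 and LLY-283 replicates 2 and 3 (adjusted p up to 0.0529). MTHFD2 shares 1324 exonic bases with SLC4A5 on the opposite strand.
ASNS, asparagine synthetase, whose promoter holds one of the classical ATF4 response elements, had 44.75, 48.42, 49 and 49.87 TPM with vehicle. With LLY-283 it had 52.89, 47.65, 45.18 and 51.95 TPM. The groups were mixed, with both the highest value and the second lowest among the LLY-283 libraries, and the log2 fold change was 0.04 (95% confidence interval -0.09 to 0.17, adjusted p = 0.641, limma). ASNS overlaps a long noncoding gene, ENSG00000284707, on the same strand by 2415 exonic bases, so the division of reads between them is uncertain.
PHGDH, the first enzyme of the serine pathway, ranged from 233.84 to 248.53 TPM with vehicle and from 251.94 to 289.85 TPM with LLY-283. Its LLY-283 values were all the higher ones, opposite to PSAT1, but did not pass the test (log2 fold change 0.12, adjusted p = 0.0879, limma). PHGDH passed it under quantile normalization, with median-of-ratios scaling, with the GC and length trend removed and with mitochondrial genes left out (adjusted p from 0.0148 to 0.0494). PSPH, the last enzyme of that pathway (log2 fold change -0.12, adjusted p = 0.0704), and SHMT2, which moves serine's carbon into mitochondrial folate (log2 fold change -0.08, adjusted p = 0.125), did not pass, but both did without LLY-283 replicate 4 (adjusted p = 0.0123 and 0.0115). Both also passed under quantile normalization and with mitochondrial genes left out. With the GC and length trend removed, their log2 fold changes were -0.006 and 0.009 (adjusted p = 0.939 and 0.894, limma). ALDH1L2, a mitochondrial folate enzyme and the least abundant of the 35 genes, ranged from 0.89 to 1.63 TPM over the 8 libraries (log2 fold change -0.29, 95% confidence interval -0.73 to 0.15, adjusted p = 0.307, limma).

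Of the 5 amino acid transporters, 3 were lower and none was higher, beside 17.6% lower and 8.61% higher among all genes tested. With median-of-ratios scaling 2 were lower and 1 higher, and with the GC and length trend removed 1 was lower and 1 higher. With each library left out in turn, 2 to 4 were lower. SLC7A11 (xCT; ENSG00000151012, chromosome 4, 138164097 to 138242349), the cystine importer that supplies glutathione synthesis, had 69.77, 65.06, 72.67 and 64.85 TPM with vehicle and 59.61, 58.76, 59.61 and 54.34 TPM with LLY-283. The groups did not overlap, and LLY-283 replicate 4 was the lowest, unlike for most members. SLC7A11 fell by 14.6% (adjusted p = 0.00766 by limma, log2 fold change -0.23, standard error 0.048). It shares 865 exonic bases with SLC7A11-AS1 on the opposite strand.
SLC1A5 (ASCT2; ENSG00000105281, chromosome 19, 46774883 to 46788594), a glutamine transporter, had 147.56, 155.02, 149.08 and 149.64 TPM with vehicle and 133.08, 131.39, 129.47 and 139.35 TPM with LLY-283. The groups were clearly apart, with a log2 fold change of -0.17 (adjusted p = 0.00364 by limma, standard error 0.031), and the call was lost with the GC and length trend removed (-0.09, adjusted p = 0.0623).
SLC7A5 (LAT1), the importer of large neutral amino acids, fell from 164 ± 3.62 TPM with vehicle to 153 ± 3.89 TPM with LLY-283 (SD over 4 libraries; adjusted p = 0.0333 by limma, log2 fold change -0.10). This call was lost under 11 of 19 alternatives, among them median-of-ratios scaling (adjusted p = 0.256) and the removal of any 1 of vehicle replicates 2, 3 and 4 and LLY-283 replicates 1, 2 and 3. SLC3A2 is the heavy chain that carries both SLC7A5 and SLC7A11 to the membrane. It ranged from 219.5 to 225.24 TPM with vehicle and from 192.87 to 220.48 TPM with LLY-283 (log2 fold change -0.12, adjusted p = 0.0550, limma). SLC3A2 passed the test under 5 of 19 alternatives, among them without LLY-283 replicate 4 (adjusted p = 0.00442) and under quantile normalization (adjusted p = 0.0085). With the GC and length trend removed its log2 fold change was -0.04 (adjusted p = 0.594). SLC7A1 (CAT1), the arginine and lysine importer, ranged from 37.66 to 41.13 TPM with vehicle and from 40.87 to 42.11 TPM with LLY-283 (log2 fold change 0.06, adjusted p = 0.215, limma), and was higher with median-of-ratios scaling (0.11, adjusted p = 0.0352) and with the GC and length trend removed (0.13, adjusted p = 0.0183).

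The 6 tRNA synthetases among the members, which attach amino acids to their tRNAs, and XPOT, the exporter of tRNA from the nucleus, did not move one way. AARS1 (alanyl-tRNA synthetase; ENSG00000090861, chromosome 16, 70251983 to 70289707) had 130.89, 139.62, 135.93 and 139.36 TPM with vehicle and 118.21, 112.69, 115.11 and 123.65 TPM with LLY-283. The groups did not overlap, and AARS1 was lower (adjusted p = 0.00256 by limma, log2 fold change -0.22, standard error 0.036).
GARS1 (glycyl-tRNA synthetase; ENSG00000106105, chromosome 7, 30580533 to 30634033) went the other way, with 225.6, 226.22, 220.49 and 225.22 TPM with vehicle and 239.49, 233.26, 234.93 and 246.58 TPM with LLY-283. Every LLY-283 value was above every vehicle value, yet the log2 fold change was 0.09 (adjusted p = 0.0343 by limma, standard error 0.026). The call was lost under 9 of 19 alternatives, among them quantile normalization (0.06, adjusted p = 0.0546) and the removal of any 1 vehicle library or LLY-283 replicate 1 (adjusted p up to 0.0760). GARS1 shares 312 exonic bases with GARS1-DT on the opposite strand.
WARS1 (tryptophanyl-tRNA synthetase) was lower by the test, at 186 ± 3.54 TPM with vehicle and 171 ± 9.59 TPM with LLY-283 (SD, n = 4 each; log2 fold change -0.12, adjusted p = 0.0455, limma). LLY-283 replicate 4, at 183.98 TPM, reached into the vehicle range, and the call was lost under 12 of 19 alternatives, 7 of which left out 1 library (any but LLY-283 replicate 4, adjusted p up to 0.114). With the GC and length trend removed, the log2 fold change of WARS1 was -0.009 (adjusted p = 0.905, limma).
MARS1 (methionyl-tRNA synthetase), which overlaps DDIT3, ranged from 174.49 to 185.82 TPM with vehicle and from 175.11 to 200.02 TPM with LLY-283 (log2 fold change 0.07, adjusted p = 0.252, limma). SARS1 (seryl-tRNA synthetase), NARS1 (asparaginyl-tRNA synthetase) and XPOT had log2 fold changes of -0.05, 0.04 and -0.03 (adjusted p = 0.303, 0.318 and 0.726, limma). With the GC and length trend removed, MARS1 and NARS1 were called higher (0.18 and 0.13, adjusted p = 0.0253 and 0.0229), and without LLY-283 replicate 4 SARS1 was called lower (-0.08, adjusted p = 0.0475).

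The other cytosolic tRNA synthetases and their scaffold proteins, which were not among the 35 genes, were higher more often than lower. Of 18 listed genes, all tested, 9 were higher and 1 was lower (against 8.61% and 17.6% of all genes tested), with a median log2 fold change of 0.09. VARS1 (valyl-tRNA synthetase) rose from 73.3 ± 2.09 TPM with vehicle to 87.0 ± 2.41 TPM with LLY-283 (SD over 4 libraries; adjusted p = 0.000831 by limma, log2 fold change 0.25). AIMP2, a scaffold of the multi-synthetase complex, rose from 129.8 ± 5.59 TPM with vehicle to 154.5 ± 5.01 TPM with LLY-283 (SD over 4 libraries; adjusted p = 0.00145 by limma, log2 fold change 0.25). The other 7 that rose, with log2 fold changes of 0.09 to 0.18, were EEF1E1 (also of that complex), KARS1, FARSB, RARS1, HARS1, IARS1 and YARS1. TARS3, a second threonyl-tRNA synthetase, fell (log2 fold change -0.29, adjusted p = 0.00755), a call lost under quantile normalization.
The count of higher genes in this list was 9 under quantile normalization, 10 with median-of-ratios scaling and 10 with the GC and length trend removed. Over all genes tested, 1871, 1927 and 2763 were higher in those settings, in place of 1247. The count in this list fell to 5 without vehicle replicate 2 or without vehicle replicate 4. Under the same test, 1 of the 7 members of the tRNA group was higher and 2 were lower (14.3% and 28.6%, with 8.61% and 17.6% over all genes tested). With the GC and length trend removed, 3 of these 7 were higher and 1 was lower. With each library left out in turn, 0 to 1 of them were higher and 1 to 3 lower. The difference between these lists was not tested. Of 20 mitochondrial tRNA synthetase genes, 2 were higher and 2 lower, near or below the 8.61% and 17.6% of all genes tested, and of the higher ones HARS2 had the smaller p-value (log2 fold change 0.24, adjusted p = 0.00162, limma). Quantile normalization gave 4 higher genes here, median-of-ratios scaling gave 5, and removal of the GC and length trend gave 5. Higher calls over all genes tested rose in these settings too, as given above. The count of higher genes here was 1 without vehicle replicate 1 or any 1 of LLY-283 replicates 1, 2 and 3. The lower count here was 1 with the GC and length trend removed and without vehicle replicate 1 or 3, and 3 without LLY-283 replicate 3.

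**Figure D3:**
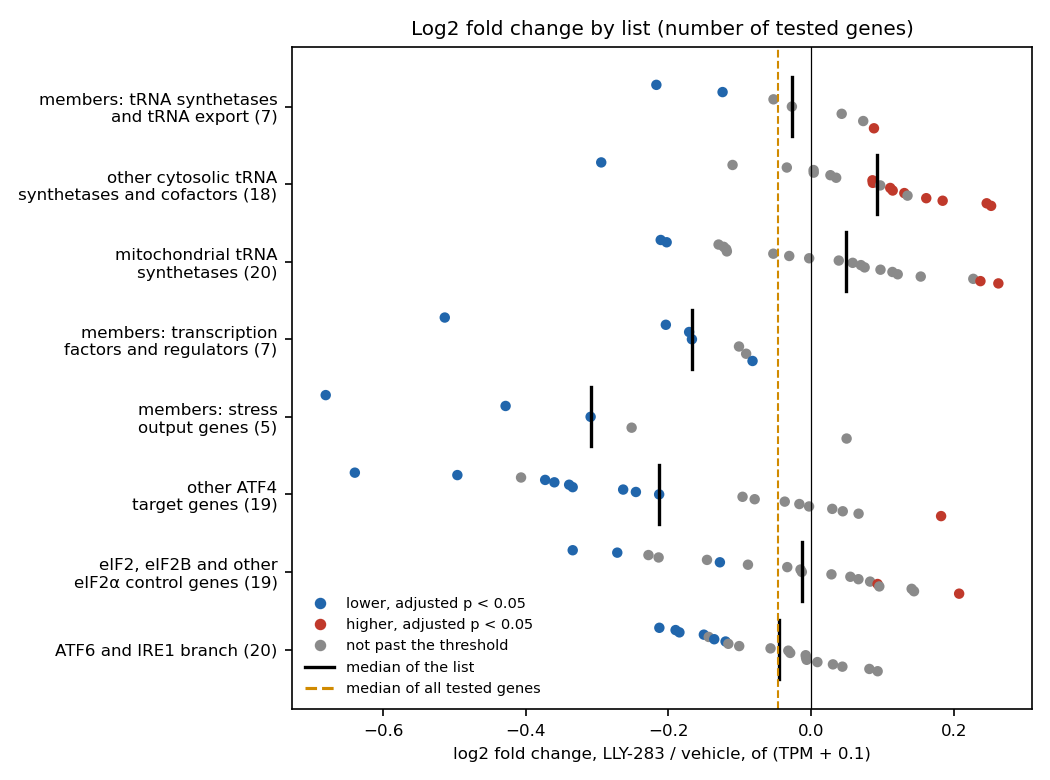
Log2 fold change (LLY-283 over vehicle, on log2(TPM + 0.1)) of each tested gene in 3 groups of members and 5 further lists, 1 point per gene, with the list's median as a black bar and the median of all genes tested (-0.05) dashed. Points of the other cytosolic tRNA synthetases lie mostly to the right of 0 (15 of 18), while the regulators among the members all lie to the left.

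Of 24 further ATF4 target genes listed, 19 were tested, and 9 of these were lower and 1 was higher (47.4% and 5.26%, against 17.6% and 8.61% of all genes tested), with a median log2 fold change of -0.21. The 5 others (TSLP, FGF21, ADM2, SLC7A3 and SLC43A1) had means under 1 TPM. PCK2, the mitochondrial enzyme that makes phosphoenolpyruvate, fell from 15.7 ± 0.531 TPM with vehicle to 10.0 ± 0.483 TPM with LLY-283 (SD over 4 libraries; adjusted p = 7.44e-05 by limma, log2 fold change -0.64). CTH and CBS, the enzymes that turn homocysteine into cysteine, had log2 fold changes of -0.50 and -0.36 (adjusted p = 0.00283 and 0.0192). SLC1A4, a serine and alanine transporter, PYCR1 of proline synthesis and VEGFA, the angiogenic factor, had log2 fold changes of -0.37, -0.33 and -0.34 (adjusted p = 0.000536, 0.00149 and 0.0154). The remaining 3 that fell were SLC6A9, MTHFD1L and ATF5. GPT2, an alanine aminotransferase, rose (log2 fold change 0.18, adjusted p = 0.0409). The list had 0 higher genes without any 1 of the vehicle libraries or of LLY-283 replicates 2, 3 and 4. The count of lower genes stayed between 7 and 9 under the 19 alternatives that kept the threshold, and 1 of them, PCK2, also passed 1.5-fold.
Among 19 genes for eIF2, its exchange factor eIF2B and other regulators of eIF2 alpha, 2 were higher and 3 were lower (10.5% and 15.8%), close to the 8.61% and 17.6% of all genes tested. EIF2S1, which encodes eIF2 alpha itself, rose from 136 ± 2.17 TPM with vehicle to 157 ± 4.57 TPM with LLY-283 (SD over 4 libraries; adjusted p = 0.000996 by limma, log2 fold change 0.21), and EIF2S3, its gamma subunit, had a log2 fold change of 0.09 (adjusted p = 0.0251). EIF2B2 and EIF2B1, subunits of eIF2B, fell (log2 fold changes -0.33 and -0.13, adjusted p = 0.000613 and 0.0132), as did OMA1, the mitochondrial protease that signals to HRI (-0.27, adjusted p = 0.00939). With median-of-ratios scaling 5 genes of this list were higher and with the GC and length trend removed 7, and 1 was higher without vehicle replicate 2 or 4 or LLY-283 replicate 1. The lower count of this list was 2 with median-of-ratios scaling, 1 with that trend removed and 5 when a mean of at least 5 TPM was required. Over all genes tested, 1927 were higher and 1866 lower with that scaling, and 2763 higher and 1593 lower with that trend removed. In the reported fit these counts were 1247 and 2541. Among 20 genes of the ATF6 and IRE1 branch, the other arms of the unfolded protein response, 6 were lower (30.0%, against 17.6% of all genes tested) and none was higher. XBP1 had the smallest p-value of these (log2 fold change -0.21, adjusted p = 0.000651, limma), and the chaperone HSPA5 (BiP), a standard marker of endoplasmic reticulum stress, had a log2 fold change of -0.06 (adjusted p = 0.228). Only 1 gene of this list was lower with median-of-ratios scaling, and 1 with the GC and length trend removed, where 2 were higher. Leaving out any 1 library other than LLY-283 replicate 4 left 2 or 3 lower genes, and leaving out that library gave 9.

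**Figure D4:**
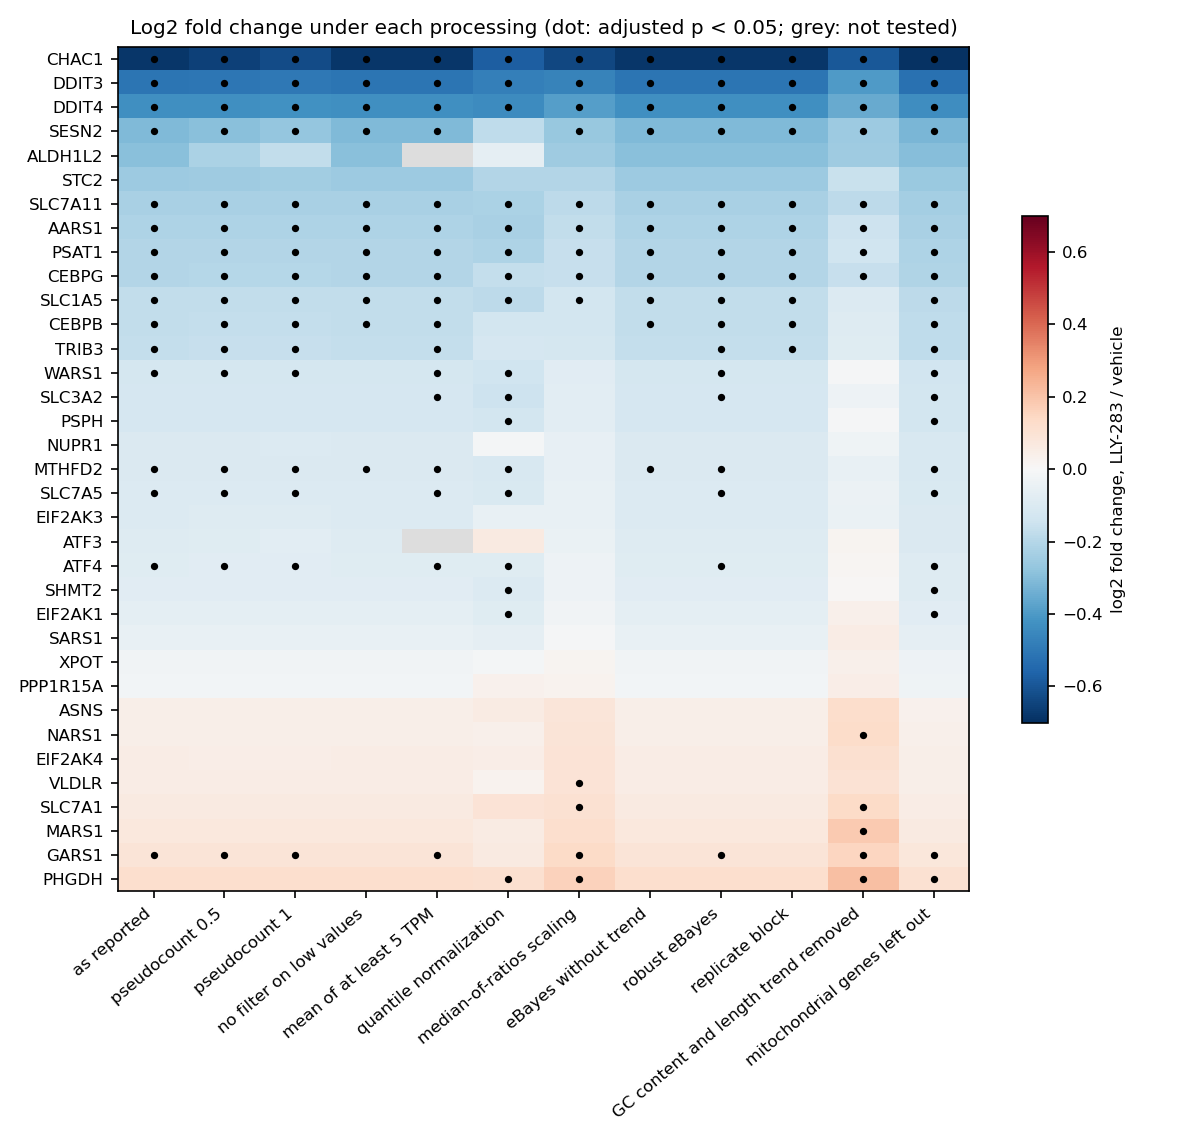
Log2 fold change of the 35 genes (rows, ordered by the reported value) under the reported processing and 11 alternatives (columns), blue for lower and red for higher after LLY-283. Dots mark an adjusted p-value under 0.05. The rows of CHAC1, DDIT3 and DDIT4 carry a dot in every column, while ATF4 and SLC7A5 lose it with median-of-ratios scaling and with the GC content and length trend removed.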

How the data were processed

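RNAseq of 8 U251 samples (4 vehicle, 4 LLY-283) was analysed. The authors deposited TPM per gene and library, estimated with RSEM on GENCODE release 41 and rounded to 2 decimals. The submitters' processing notes name cutadapt 1.18, STAR 2.7.0f and RSEM 1.3.1 on hg38, and the study's methods name other releases of STAR and RSEM. TPM keeps no depth, so no counting error can be given, and it depends on the composition of the library.

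Genes averaging 1 TPM or more were tested with limma 3.58.1 in R 4.3.3 (lmFit, eBayes with trend) on log2(TPM + 0.1), without covariates, with Benjamini-Hochberg adjustment over all genes tested. The pseudocount understates changes of low genes. The members, the lists and the tests were chosen with earlier results of these data known. Values in every library are given for ATF4, DDIT3, ATF3, TRIB3, CHAC1, ASNS, the kinases, members past 1.5-fold and the 2 called members of smallest p-value in each role group. Of each further list the called gene of smallest p-value in each direction is named, except 1 gene that is not reported here, and others were named after their values were seen. Positions and overlaps came from GENCODE release 44 on GRCh38, and promoters from RefSeq. On simulated data, 175 of 200 genes changed by 1 on the log2 scale were recovered among 14478, with 11 unchanged genes called. The simulation held no differences between libraries, and the largest change of a member was -0.68. It therefore does not give the recovery of changes as small as those of the members. Alternatives were pseudocounts of 0.5 and 1, other filters, scalings and forms of eBayes, a replicate block, a correction for GC content and length, mitochondrial genes left out, a 1.5-fold threshold and each library left out.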

Additional observations from a re-analysis of the deposited data

Results flagged for a closer look

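In 4 of 70 groups of 4 values (35 genes, 2 groups each) 1 value lay far from the other 3 by Dixon's criterion, which chance gives in about 1 of 20 groups. DDIT3 had 40.01 TPM in vehicle replicate 2, above the other 3 vehicle values, NUPR1 had 11.86 TPM in LLY-283 replicate 2, below the other 3, SLC7A11 had 54.34 TPM in LLY-283 replicate 4, below the other 3, and VLDLR had 182.4 TPM in vehicle replicate 4, below the other 3. Without LLY-283 replicate 4, SLC7A11 had a log2 fold change of -0.20 and stayed lower.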

How the results depend on the processing

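Of 663 log2 fold changes of the 35 genes over the 19 alternatives that kept the threshold, 66 lost a call while keeping their sign and 25 gained one. In all, 14 values of 8 genes turned sign, 7 of them with the GC content and length trend removed. Of these 14, 13 belonged to genes that were not called (ATF3, NUPR1, EIF2AK1, PPP1R15A, SHMT2, SARS1 and XPOT) and 1 to a called gene, ATF4, with that trend removed (0.013), which lost its call too. Over all genes, the calls went from 1247 higher and 2541 lower to 1871 higher and 1820 lower under quantile normalization, to 1927 higher and 1866 lower with median-of-ratios scaling, and to 2763 higher and 1593 lower with the GC content and length trend removed. A change above 1.5-fold, when also required, left 57 higher and 504 lower. Among the members, 0 were higher without a filter on low values, without the trend in eBayes or past 1.5-fold (where 1 was lower), 4 were higher and 9 lower with median-of-ratios scaling, 5 higher and 8 lower with the GC content and length trend removed, and 2 higher and 19 lower with mitochondrial genes left out. With each library left out in turn, 0 to 1 members were higher and 10 to 20 lower, and 888 to 1508 genes higher and 1889 to 2659 lower over all tested. The replicate block gave 0 higher and 11 lower members and 1095 higher and 2201 lower genes. Samples of the same number did not deviate together (r from -0.09 to 0.03, and 0 of 8 libraries correlated best with their own number). This cannot tell whether samples of the same number were prepared together, which the labels do not state. The causes of these shifts were not tested.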

Other observations

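Of 7 glial and stem markers, 3 were lower, 1 was higher and 3 passed the test in neither direction (42.9% lower and 14.3% higher, against 17.6% and 8.61% of all genes tested). SOX2, a stem cell transcription factor, fell from 103 ± 3.16 TPM with vehicle to 85.6 ± 1.10 TPM with LLY-283 (SD over 4 libraries; adjusted p = 0.000349 by limma, log2 fold change -0.27), and GFAP and NES, intermediate filament genes of astrocytes and neural progenitors, had log2 fold changes of -0.25 and -0.17 (adjusted p = 0.00082 and 0.000731). VIM, SOX9 and S100B had log2 fold changes of -0.06, -0.08 and -0.43 (adjusted p = 0.195, 0.0905 and 0.0781). CD44, a surface receptor of mesenchymal cells, rose (log2 fold change 0.11, adjusted p = 0.0168). This call was lost under quantile normalization, without a filter on low values and without at least 1 of the libraries. Of the 13 mitochondrially encoded protein genes, MT-ND6 fell (log2 fold change -0.33, adjusted p = 0.000791) and the other 12 passed the test in neither direction. The shares were 7.69% lower and 0% higher, against 17.6% and 8.61% of all genes tested. With each library left out in turn, 0 to 1 of the 13 were higher and 1 was lower. These genes summed to 69661 TPM in LLY-283 replicate 4 and to at least 97974 TPM in each of the other 7 libraries.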
